A study of Mus musculus with 4 samples.

Results

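Cyr61 and Thbs1 are a pair of genes for secreted matricellular proteins, and they are 2 of the 4878 genes in the table. They were chosen by the difference in mRNA level between eIF1A knockdown and control cells, because both were higher while most genes of the extracellular matrix were lower, so their values in that comparison are given as a description and were not tested. The 4 libraries came from mouse embryonic fibroblasts at passages 5 to 8, primary cells grown from embryos. In 2 libraries the cells had been transfected with a negative control siRNA and in the other 2 with an siRNA against eIF1A, in the labels Si-eIF1A (X+18), both with Lipofectamine RNAiMAX. eIF1A is a translation initiation factor that takes part in scanning and in the choice of the start codon. RNA was measured by bulk MARS-seq, which counts the 3′ ends of polyadenylated transcripts. Levels of different genes were therefore not set against each other, apart from a sum over fibroblast markers below.

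Matricellular proteins are placed in the extracellular matrix but do not build its fibres. They bind receptors, growth factors, proteases and structural proteins, and so change how a cell reads the matrix around it. CYR61, the founding member of the CCN family and now also called CCN1, binds integrins and heparan sulfate proteoglycans, and its gene is a well-known immediate early gene and target of the transcriptional coactivators YAP and TAZ. Thrombospondin 1, the product of Thbs1, is a large glycoprotein that binds CD47, CD36 and integrins, inhibits angiogenesis and can release active TGF-beta from its latent complex. Both proteins carry thrombospondin type 1 repeats, a module that is also found in the ADAMTS proteases.

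Reads recovered from the normalised counts numbered 2152331 to 2595625 per library. The labels do not tell whether replicate libraries stem from separate cultures. The p-values thus set group differences against the spread among these libraries only, and that spread may be technical. Of 14 fibroblast markers 4 were in the table, among them vimentin (Vim) and S100a4. Of the markers of other cell types only Flt1 (endothelial) and Smtn (smooth muscle) were, and the remaining ones were not analysed here. Eif1a and Eif1ax, the genes of the targeted factor, were not analysed here either.

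Cyr61 (ENSMUSG00000028195.4, annotated as Ccn1) lies on chromosome 3 of mm10, from 145646976 to 145649981 on the minus strand. Its annotated transcript has 5 exons and 2019 bases. Thbs1 (ENSMUSG00000040152.8) lies on chromosome 2, from 118111876 to 118127133 on the plus strand, with 22 exons and 5848 bases in its coding transcript. No exon of another gene was annotated on either strand within the last 1000 bases of either gene, where 3′ end reads fall, and no annotated pseudogene carried either name.

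Because eIF1A acts in start codon selection, the sequence around each start codon is shown first, with the ATG in capitals (GENCODE M21 transcripts, mm10).
Cyr61: ctgcgcgccacaATGagctccagcacc
Thbs1: aaaggctccaccATGgagctcctgcgg
Both had an A at base -3, counted back from the ATG, where a purine was found in 86.3% of 4582 tested genes with a matched transcript. Thbs1 also had a G directly after the ATG, as did 54.1% of these genes, and Cyr61 an A. Neither 5′ UTR held an upstream ATG, as was the case in 54.3% of the genes. The 5′ UTR was 189 bases long in Cyr61 and 228 in Thbs1, against a median of 169.5 bases.

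The 3′ UTRs of both genes held repeated copies of TATTTAT, the heptamer at the core of many AU-rich elements, which are known as sites where mRNA decay is controlled. The sites are shown with up to 10 bases on each side and the heptamer in capitals.
Cyr61 site 1: aatgttttttTATTTATcaaagtgtag
Cyr61 site 2: gaagagaattTATTTATaaaattaatc
Thbs1 site 1: caatgtaataTATTTATtttgttcccc
Thbs1 site 2: aaatacagatTATTTATtaaccctgtt
Thbs1 site 3: tggaagtttaTATTTATa
The Cyr61 sites began at bases 556 and 649 of a 3′ UTR of 690 bases. The Thbs1 sites began at bases 1013, 1137 and 2097 of 2104, so that site 3 ended 1 base before the end of the annotated transcript. At least 2 copies were found in 6.35% of the tested genes and at least 3 in 1.99%. Per kilobase of 3′ UTR, Cyr61 had 2.9 copies, a density that 1.96% of the tested genes reached, and Thbs1 had 1.43, which 6.18% reached. A match is a description of the letters and not a measured site of decay.

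Cyr61 is known for its regulation by YAP and TAZ with the TEAD factors. Only Cyr61, not Thbs1, had an entry in the RefSeq promoter set used. The Thbs1 promoter was therefore not searched, and that of Cyr61 alone is shown. The 250 bases before the RefSeq start site (GRCm38.p6, chr3:145649986-145650235, minus strand) are printed with matches to the motifs searched in capitals.
Cyr61 promoter: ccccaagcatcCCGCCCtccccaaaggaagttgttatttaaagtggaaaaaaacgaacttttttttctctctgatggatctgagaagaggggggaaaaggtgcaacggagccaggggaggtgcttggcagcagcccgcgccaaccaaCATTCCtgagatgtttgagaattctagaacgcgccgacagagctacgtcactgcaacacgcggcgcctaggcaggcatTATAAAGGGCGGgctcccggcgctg
On both strands of the window of 300 bases around the start site, GGAATG, the core of the TEAD motif, occurred once, on the opposite strand from base -103 to base -98. The window held it in 14.7% of 32851 RefSeq promoters. A TATA box (TATAAA) lay from base -25 to base -20, as one did somewhere in the window in 13.6% of promoters, and it was followed directly by a GC box (GGGCGG). A further GC box lay from base -239 to base -234, and 35.7% of promoters held at least 1. The letters of AP-1 (TGANTCA, in 7.81% of promoters), CRE (TGACGTCA, 1.79%), the composite ATF and C/EBP site (TGATGNAA, 3.97%), the E-box (CACGTG, 7.15%) and the CArG box (1.63%) were not in this window.

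Cyr61 mRNA was at 146 normalised counts in control 1 and 138 in control 2, and at 609 in knockdown 1 and 650 in knockdown 2. Both knockdown libraries lay far above both controls, and each pair of replicates was close together. The group means were 142 ± 5.44 and 629 ± 29.3 (SD, n = 2 each). The smallest of the 4 library to library ratios was 4.18 and the largest 4.71. On the log2(normalised count + 1) scale, which all fold changes below use, the difference was 2.14 (SE 0.22), or 4.41-fold. The 148, 170, 754 and 957 reads behind these values gave exact Poisson 95% intervals of 123 to 171, 118 to 160, 566 to 654 and 610 to 693 normalised counts, which cover counting error only. In bulk libraries fewer cells of a type and less RNA per cell cannot be told apart, here and below.

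Thbs1 mRNA was at 25.6 and 18.7 normalised counts in controls 1 and 2 and at 67 and 122 in knockdowns 1 and 2. The groups did not overlap, but the knockdown libraries stood apart from each other by a factor of 1.82. Their counting intervals, 53.4 to 83.1 and 105 to 141, did not overlap either. The means were 22.1 ± 4.89 and 94.6 ± 39.1 (SD, n = 2 each), with library to library ratios from 2.62 to 6.55. The log2 difference was 2.00 (SE 0.37), or 4-fold. It was 1.57 without knockdown replicate 2 and 2.43 without knockdown replicate 1. Thbs1 rested on 26, 23, 83 and 180 reads, far fewer than Cyr61.

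**Figure D1:**
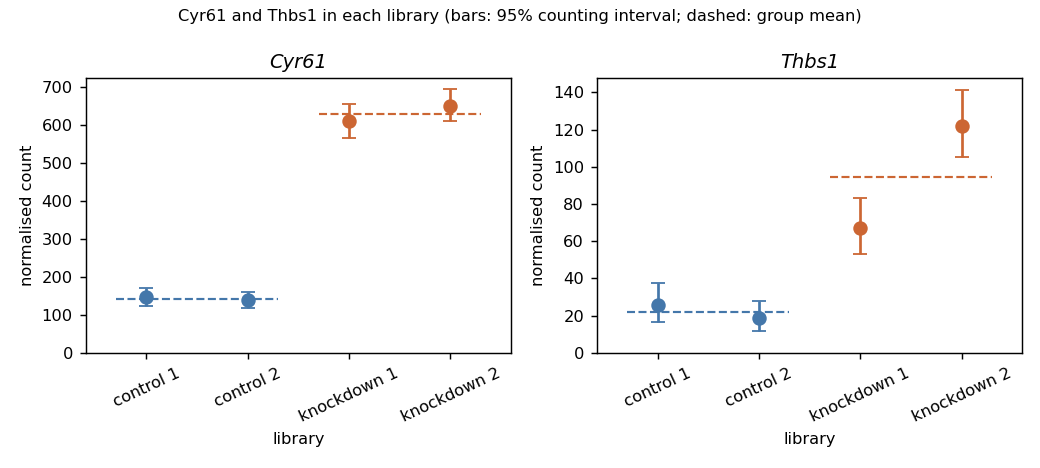
Normalised counts of Cyr61 and Thbs1 in each of the 4 libraries, with exact 95% counting intervals as bars and group means as dashed lines. Cyr61 sits at 138 to 146 in controls and 609 to 650 in knockdowns, whereas the Thbs1 knockdown libraries, at 67 and 122, are apart from each other.

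The genes thus had differences of like size but unlike replicate spread. The ratio of their summed and scaled reads was 4.46 for Cyr61 (95% counting interval 3.96 to 5.05) and 4.45 for Thbs1 (3.27 to 6.17). These intervals, and those of read ratios below, pool the libraries of each group and leave out the spread between replicates. Between the knockdown libraries Thbs1 differed by 0.86 on the log2 scale, a gap wider than that of 92.2% of the tested genes. The gap of Cyr61 was 0.09, wider than that of 19.4%. Ordered by the log2 difference, Cyr61 stood at place 48 and Thbs1 at place 71 of 4605 tested genes.

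In the table as a whole 37.5% of 4605 tested genes passed the threshold of an adjusted p of 0.05 (limma with Benjamini-Hochberg adjustment), 15.9% higher and 21.6% lower in knockdown cells. The median log2 difference of all tested genes was -0.01. Knockdown libraries did not overlap controls in 32.4% of genes on the higher side and 35.5% on the lower side.

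Close relatives of the 2 genes did not all share their direction. Of 6 CCN family genes, Cyr61 and Wisp1, which encodes CCN4, were in the table. Wisp1 was at 3.94 and 0.812 normalised counts in controls and 8.88 and 9.51 in knockdowns. The groups did not overlap, but Wisp1 did not pass (log2 difference 1.77, limma adjusted p = 0.0979). Its 5 control and 25 knockdown reads gave a ratio of 4.15 (95% counting interval 1.56 to 13.9). It passed at equal library totals (adjusted p = 0.0439), in limma without trend (0.0431) and without control replicate 1 (0.0227), and over all settings run the adjusted p ranged from 0.0227 to 0.313.

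Of 5 thrombospondin genes, Thbs1, Thbs2 and Thbs3 were in the table. Thbs3, a member of the pentameric branch of the family, was at 466 and 345 in controls and 185 and 212 in knockdowns, and fell 2.02-fold (limma adjusted p = 0.00213). Its direction was thus opposite to that of Thbs1, and its call was kept under every alternative run. Thbs2, like Thbs1 a trimeric inhibitor of angiogenesis, was at 5.91 and 4.06 in controls and 2.42 and 0.679 in knockdowns. It lay under the filter on low values and was not tested. The control to knockdown ratio of its reads was 3.32 (95% counting interval 0.983 to 14.3), which includes no difference.

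Other matricellular genes fell where they passed, though such genes are part of the matrix pattern against which Cyr61 and Thbs1 were chosen. Of 24 on the list 6 were in the table and tested, and 4 of these fell and none rose, beside 21.6% lower and 15.9% higher of all tested genes. The count of higher members was also 0 at an unadjusted p under 0.05, by edgeR and by DESeq2. Ecm1, a matrix glycoprotein of skin and vessels, fell 6.04-fold, from 1960 ± 415 to 324 ± 75.3 (limma adjusted p = 8.98e-08). Igfbp7, a secreted binding protein of insulin-like growth factors, fell 2.09-fold (0.00182), a call lost in limma without trend (0.0552). Sparc, a collagen-binding matricellular protein, went from 6911 ± 1906 to 3962 ± 769 and fell 1.73-fold (0.0193). Tnc, which encodes tenascin C, fell 2.16-fold (0.0197). Sparc lost its call under 5 of 16 other settings (adjusted p = 0.102 to 0.487), among them without control replicate 2 and without knockdown replicate 2. Tnc lost its call under 4 (0.0704 to 0.224), among them without control replicate 1 and without knockdown replicate 1. Spp1, which encodes osteopontin, was at 35 ± 10.4 and 52.6 ± 8.2 and did not pass (0.205), although it did at equal library totals (0.0443, with a range of 0.0443 to 0.599 over the settings run).

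Genes for other proteins with thrombospondin type 1 repeats were sparse in the table, 7 of 50, with 6 tested. Of these 3 fell and none rose, beside the same shares of all tested genes, 21.6% and 15.9%. Adamtsl4, a microfibril-associated protein, fell 5.93-fold, with controls at 357 and 244 and knockdowns at 48.4 and 49.6 (limma adjusted p = 6.74e-07). Unc5b, a netrin receptor, fell 2.06-fold (0.00122). Adamts2, a procollagen peptidase, fell from 13.3 ± 0.709 to 1.15 ± 0.661 (0.0101). Its knockdown libraries held 2 and 1 reads, and the control to knockdown ratio of reads was 12.1 (95% counting interval 3.75 to 61.7). Adamts1, a protease that cleaves versican, was on the other side. It was at 5.91 and 2.43 in controls and 12.9 and 17 in knockdowns and narrowly missed the threshold (log2 difference 1.70, adjusted p = 0.0505), and edgeR called it higher (0.0369). Over the settings run its adjusted p ranged from 0.0124 to 0.286. For the higher side of this list the count was 0 by limma and by DESeq2, and 1 both by edgeR and at an unadjusted p under 0.05.

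The wider core matrix, whose direction was part of the reason for choosing the 2 genes, is given as a description. Of 94 listed genes 47 were in the table, and apart from Cyr61 and Thbs1 there were 42 tested, of which 28 were lower past the threshold and 1, Lamb1, was higher, beside 21.6% and 15.9% of all tested genes. Their median log2 difference was -1.11, and -0.77 at equal library totals, a scaling that moved the all-gene median to 0.34. Col6a1, a collagen VI chain, was 7.94-fold lower, Col16a1 8.99-fold, Emilin1, an elastin-associated protein, 9.64-fold and Olfml3, an olfactomedin-like matrix protein, 8.69-fold. The 2 genes stood at the upper end of this list, with Wisp1, at 1.77, next to them. Lamb1, a laminin chain, was then at 73.8 and 46.3 in controls and 115 and 99.2 in knockdowns (log2 difference 0.86, limma adjusted p = 0.0326), and it lost its call under 6 other settings (adjusted p = 0.0526 to 0.211), among them each omission of control replicate 2, knockdown replicate 1 or knockdown replicate 2.

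**Figure D2:**
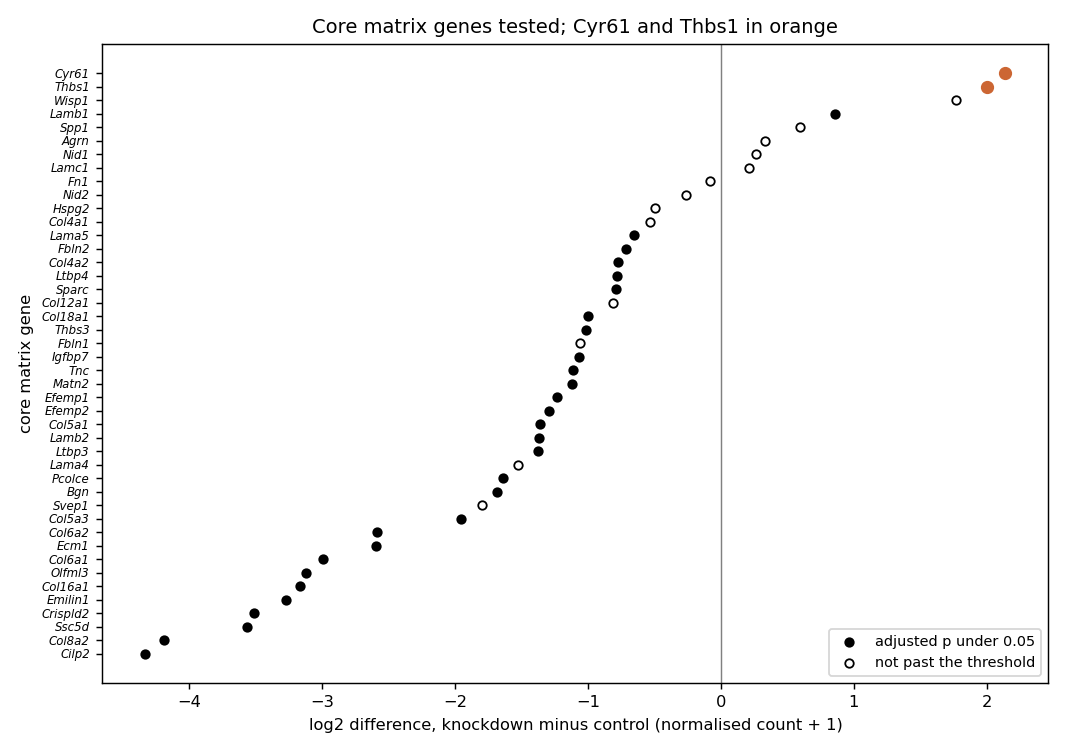
Log2 difference between knockdown and control of each tested core matrix gene, ordered by value, with filled points past an adjusted p of 0.05 and Cyr61 and Thbs1 in orange. The pair lies at 2.14 and 2.00, above Wisp1 at 1.77 and Lamb1 at 0.86, while the median of the other genes is -1.11.

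The list of matrix proteases, inhibitors and crosslinking enzymes, called matrix enzymes below, also holds genes of proteins that are not enzymes, such as Serpinf1 and Timp2. Its members were lower where they passed. Of 24 tested members 16 fell and none rose, against 21.6% lower and 15.9% higher in the whole table. The list median was -0.84. The higher count was 0 at an unadjusted p under 0.05, by edgeR and by DESeq2. Serpinf1, which encodes the antiangiogenic factor PEDF, fell 8.1-fold from 1617 ± 89.5 to 200 ± 31.5 (limma adjusted p = 9.88e-09). The collagen prolyl hydroxylase subunit gene P4ha2 fell 3.43-fold and Mmp11, which encodes stromelysin 3, 2.78-fold. Of the 4 fibroblast markers measured, 3 were lower beside these matrix genes, against 21.6% of all tested genes. The 4 summed to 31573 and 26395 normalised counts in controls and 12858 and 15575 in knockdowns. S100a4, a calcium-binding protein, fell 6.64-fold (limma adjusted p = 3.74e-08). P4hb, a subunit of collagen prolyl hydroxylase that is also on the enzyme list, fell 2.28-fold (0.000606), a call lost under quantile normalisation (0.113). Vim, which together with P4hb makes up nearly all of the sum, fell 1.88-fold (0.0105), a call lost under 5 of 16 settings (0.0535 to 0.231), among them without control replicate 1 and without knockdown replicate 1. Cd44, a hyaluronan receptor, was at 54.5 ± 10.2 and 72.7 ± 18.3 and did not pass (0.355). The smooth muscle marker Smtn fell 1.91-fold, from 358 ± 89.5 to 184 ± 2.6 (0.00469), a call lost at equal library totals (0.0516) and in limma without trend (0.0522). The endothelial marker Flt1 lay between 17.9 and 33.5 normalised counts in control libraries and between 21.7 and 26.6 in knockdown libraries, so the groups overlapped. The part of these markers in the matrix result was not tested.

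Among receptors and partners of the 2 proteins, 5 of 14 tested members fell, 1 rose and 8 did not pass, beside 15.9% higher and 21.6% lower of all tested genes, with a median of -0.41 that was -0.06 at equal library totals. The member that rose was Cd47, a receptor of thrombospondin 1, which was at 211 and 216 in controls and 344 and 300 in knockdowns (1.5-fold, limma adjusted p = 0.0461). Cd47 was named after its value was seen, and it lost its call under 7 of 16 other settings (adjusted p = 0.057 to 0.274), among them each omission of a single library. Among integrin chains, Itgb5, a partner of integrin alpha V in binding CYR61, fell 1.63-fold (0.0163), a call lost under 4 settings (0.0764 to 0.226), including without knockdown replicate 1. Sdc1, a heparan sulfate proteoglycan of the cell surface, fell 1.87-fold (0.00276). Notch3, a Notch receptor, fell 7.65-fold from 433 ± 202 to 54.3 ± 19.1 (8.47e-07). The gelatinase gene Mmp2, whose product is cleared with thrombospondins, fell 3.27-fold from 1006 ± 94.6 to 313 ± 90.2 (1.4e-05). Its membrane-bound activator gene Mmp14 fell 1.68-fold (0.00959), a call lost under 4 settings (0.069 to 0.142), including without knockdown replicate 2.

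The TGF-beta pathway, which thrombospondin 1 can feed by releasing the latent ligand, had more lower than higher members. Of 19 tested genes 12 fell and 2 rose, while 5 missed the threshold, beside 21.6% lower and 15.9% higher of all tested genes. The median was -0.78 (-0.43 at equal library totals). Most of the lower members are counted above too. Bgn, Ltbp3 and Ltbp4 are core matrix genes, whose direction was part of the reason for choosing Cyr61 and Thbs1. Mmp2, Mmp14, Plat and Bmp1 are on the matrix enzyme list, and Itgb5 is among the receptors. The lower count is therefore not separate from the matrix pattern. The ligand gene Tgfb3 was at 289 and 278 in controls and 88 and 86.3 in knockdowns and fell 3.23-fold (limma adjusted p = 2.46e-05). Tgfb1 fell 2.28-fold from 367 ± 205 (0.00552), but its controls, at 512 and 222, were far apart, and without control replicate 1 the call was lost (0.109, log2 difference -0.59), as it was in limma without trend (0.0963). Ltbp3, which anchors the latent complex in the matrix, fell 2.6-fold (0.000101). Nrep fell 6.03-fold (0.00017), the small proteoglycan gene Bgn (biglycan) 3.22-fold (1.35e-05) and Plat, which encodes a plasminogen activator, 2.44-fold (0.000507). The rises, named after their values were seen, were those of Smad7, an inhibitory SMAD (2.05-fold, 0.0147), and Smad5, a BMP-linked SMAD (1.87-fold, 0.0351). Smad6, another inhibitory SMAD named after its value was seen, fell 2.29-fold from 207 ± 11.8 to 90.3 ± 10.5 (limma adjusted p = 0.00106). Smad7 lost its call without control replicate 2 (0.0522) and without knockdown replicate 2 (0.189), and Smad5 lost its call under 6 settings (0.057 to 0.223), among them the replicate block (0.0604) and without control replicate 2 and knockdown replicates 1 and 2.

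Cyr61 is on the list of YAP and TAZ target genes, of which 6 of 22 were in the table. None of the other 4 tested members passed in either direction, beside 15.9% higher and 21.6% lower of all tested genes. Their count was also 0 at an unadjusted p under 0.05, by edgeR and by DESeq2. Amotl2, an angiomotin, was at 105 and 94.1 in controls and 111 and 177 in knockdowns (limma adjusted p = 0.181, or 0.0164 at equal library totals, with a range of 0.0164 to 0.817 over the settings run). Ptpn14, a phosphatase that binds YAP, had 124 ± 46.4 and 148 ± 7.52 (0.416). Axl, a receptor tyrosine kinase, had 938 ± 252 and 785 ± 29.1 (0.454), and its difference had no firm sign across settings. Myof, a membrane repair protein, had 364 ± 61.4 and 387 ± 103 (0.847), and its sign too depended on the libraries used. A p that missed the threshold does not show that these genes did not differ, and 16 targets, Ctgf among them, were not analysed here.

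Of 20 tested Hippo pathway components 3 were higher and 4 lower, shares near the 15.9% and 21.6% of all tested genes. Their median was 0.20 and ran from -0.16 without knockdown replicate 2 to 0.55 at equal library totals. Yap1 had 84.1 ± 0.74 and 92.4 ± 21.1 (limma adjusted p = 0.788), and Wwtr1, which encodes TAZ, 20.7 ± 4.08 and 28.6 ± 15.3 (0.587). Tead2, a DNA-binding partner of YAP, was at 3068 and 3035 in controls and 1285 and 1119 in knockdowns and fell 2.54-fold (7e-05). Stk4, the kinase MST1 upstream of LATS, rose 3.68-fold from 28.5 ± 0.096 to 108 ± 11.9 (0.000132), and Rassf1, a scaffold that binds it, rose 3.96-fold (1.06e-05). Ajuba, a LIM protein that restrains LATS, rose 1.89-fold (0.00654), a call lost without knockdown replicate 2 (0.0524). Map4k2, a LATS-activating kinase, fell 2.58-fold (0.0183). Its call was lost without control replicate 2 or either knockdown replicate (0.0564 to 0.0682), with log2 differences of -1.31 to -1.37 against -1.37, and at equal library totals (0.0792). Mark2, a polarity kinase that was named after its value was seen, was also lower, and it lost its call under 8 of 16 settings (0.0554 to 0.263), among them each omission of control replicate 1, knockdown replicate 1 or knockdown replicate 2.

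Both genes are on the list of targets of SRF and its actin-controlled coactivators, the MRTFs. Among the other 31 tested ones 2 rose and 8 fell, while 21 missed the threshold. The lower share was near the 21.6% of all tested genes and the higher share was under their 15.9%. The list median was -0.34, and 0.01 at equal library totals. Fhl2, a LIM-domain coregulator, rose 2.25-fold from 68.9 ± 19.6 to 156 ± 40 (limma adjusted p = 0.00409), a call lost without knockdown replicate 2 (0.0823). Tpm1, a tropomyosin, rose 1.58-fold (0.0264, named after its value was seen), and lost its call without control replicate 1 (0.212), without knockdown replicate 2 (0.206) and in limma without trend (0.125). On the lower side, Csrp1, a LIM protein of the actin cytoskeleton, fell 2.65-fold (5.63e-05) and its relative Csrp2 3.16-fold (1.37e-05). Flna, which crosslinks actin filaments, fell 2.15-fold (0.000851). Mkl1, which encodes the coactivator MRTF-A itself, fell from 424 ± 67.6 to 222 ± 7.36 (1.89-fold, 0.00342).

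Immediate early genes, a list that also holds both genes, had more higher than lower members. Among the other 19 tested ones 8 rose and 3 fell, beside 15.9% higher and 21.6% lower in the whole table. The list median was 0.59 (0.94 at equal library totals). Without knockdown replicate 2 there were 4 higher. Jun, an AP-1 subunit, was at 27.6 and 30 in controls and 132 and 162 in knockdowns and rose 4.93-fold (limma adjusted p = 1.05e-05). Myc, which encodes a growth-promoting transcription factor, was at 29.5 and 30 in controls and 119 and 259 in knockdowns and rose 5.74-fold (1.4e-05). Its knockdown libraries differed in the same direction as those of Thbs1. Atf3, a stress-induced transcription factor, rose 4.72-fold from 45 ± 19 to 214 ± 78.3 (3.37e-05), also with the higher value in knockdown 2, at 269 against 158. Sgk1, a serum-induced kinase, rose 4.53-fold to 115 ± 1.98 (3.45e-05). Plk2, Rhob, Klf10 and Klf6 also rose, but each lost its call without knockdown replicate 2 (0.0681 to 0.274), Klf10 also without control replicate 1 (0.0775) and knockdown replicate 1 (0.132), and Klf6 also without control replicate 2 (0.093) and knockdown replicate 1 (0.136). Egr1, an immediate early zinc finger factor, was at 380 ± 116 and 559 ± 19.5 and did not pass (0.0551, named after its value was seen), with a range of 0.000547 to 0.425 over the settings run. Id1, an inhibitor of basic helix-loop-helix factors, fell 2.37-fold (0.00017), and Jund, an AP-1 subunit, and Klf2, a zinc finger factor, also fell (0.00176 and 0.0257, named after their values were seen). The call of Jund was lost in limma without trend (0.0558), and that of Klf2 under 6 settings (0.0543 to 0.238), among them each omission of control replicate 1, knockdown replicate 1 or knockdown replicate 2.

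**Figure D3:**
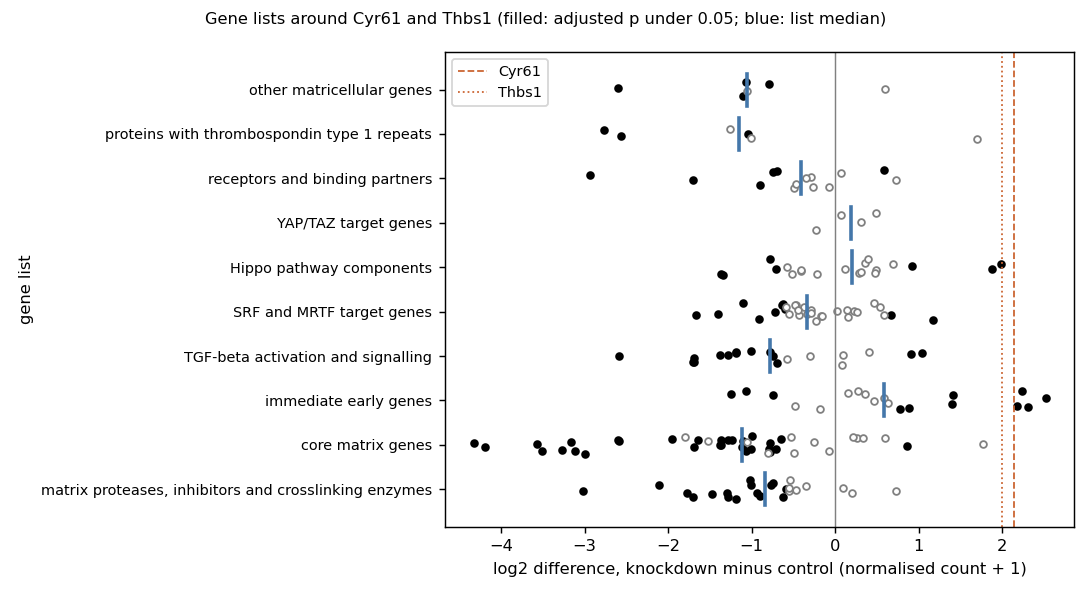
Log2 difference between knockdown and control of the tested members of 10 gene lists without Cyr61 and Thbs1, whose own values are the orange lines at 2.14 and 2.00, with filled points past an adjusted p of 0.05 and blue bars at the list medians. The medians run from -1.15 for proteins with thrombospondin type 1 repeats to 0.59 for immediate early genes, and 23 genes of the table, besides Cyr61 and Thbs1, are on more than 1 of these lists.

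The genes whose 4 values ran most like those of Cyr61 were found by the Euclidean distance between log2 values, each gene centred on its control mean. They were Mthfd2, a mitochondrial folate enzyme (distance 0.122), Ltv1, which takes part in ribosome assembly (0.149), Sgk1 (0.2), Tmem251 (0.204) and Epha2, an ephrin receptor (0.241). Epha2, for instance, was at 74.8 and 64.1 in controls and 259 and 303 in knockdowns. For Thbs1 the nearest were Cggbp1, a CGG repeat binding protein (0.296), Arl14ep (0.317), Frrs1, a ferric reductase (0.325), Nop14, which takes part in making the small ribosomal subunit (0.326), and Pphln1, which encodes periphilin (0.329). Frrs1 was at 29.5 and 26.8 in controls and 76.7 and 137 in knockdowns, with the same split of the knockdown libraries as Thbs1. No gene was among the 5 nearest of both. Likeness over 4 libraries is a description, and it includes the difference between the groups by which Cyr61 and Thbs1 were chosen. It also includes the gap between the knockdown libraries, so a like split in the genes nearest to Thbs1 follows from the measure.

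The values of both genes, which were chosen for being higher, stayed on the higher side under every setting run. The log2 difference of Cyr61 lay between 2.09 and 2.49 and that of Thbs1 between 1.57 and 2.43. For Cyr61 the largest shift came from the scaling of the libraries, and for Thbs1 from the choice of knockdown library.

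**Figure D4:**
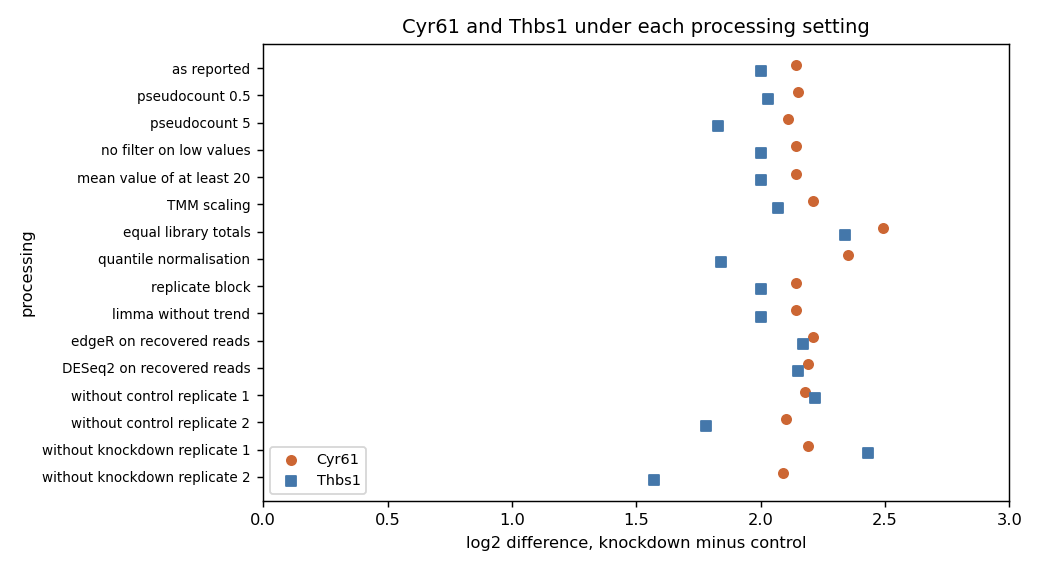
Log2 difference of Cyr61 (circles) and Thbs1 (squares) as reported and under each other processing setting, from an axis that starts at 0. Cyr61 runs from 2.09 to 2.49 and Thbs1 from 1.57 to 2.43, the latter range set by leaving out knockdown replicate 2 or 1.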

How the data were processed

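The deposited table holds a signal that its file name calls normalised counts, 1 column per library. Tools listed without roles in the submitters' processing notes were STAR, HTSeq, DESeq2, bcl2fastq 2.17.1.14 and cutadapt 1.8.3, with the build mm10. How libraries were scaled, genes selected and strand or molecular identifiers used is not stated in those notes or the labels. All values in each column were whole multiples of 1 step (100% within 0.01 read), so whole reads were recovered. Columns were matched to samples by name.

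The main test was limma 3.58.1 (R 4.3.3) with a trend on log2(value + 1), fitted to all 4605 genes whose mean reached 5, with Benjamini-Hochberg adjustment at 0.05 (two-sided). Data were simulated with the same biological spread for every gene, with 99 tested genes changed 4-fold and 99 changed 2-fold. On these data the fit recovered 98% of 4-fold and 52.5% of 2-fold changes, with 12 false calls. Spread between the real replicates differed from gene to gene, so these shares need not hold for the real libraries. Alternatives used edgeR 4.0.16 and DESeq2 1.42.0 on recovered reads, other scalings, pseudocounts and filters, a replicate block and the omission of each library. Replicates of a group differed beyond counting noise, with chi-square values of 16.5 and 13.7 per degree of freedom.

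Cyr61 and Thbs1, the lists and the rule for named genes were chosen with earlier results of these data known, and TATTTAT, UTR and start codon features after values were seen. Named were all CCN and thrombospondin genes, up to 5 called members of smallest p with separate groups per list (the 2 of highest mean where fewer than 2 passed), the 5 nearest genes and Lamb1. Any other gene with a value was named after values were seen. Annotation was GENCODE M21 (4872 of 4878 symbols matched) and promoters came from RefSeq (GRCm38.p6).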

Additional observations from a re-analysis of the deposited data

How the results depend on the processing

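Scaling, the variance model and single libraries moved counts more than the values of Cyr61 and Thbs1. Scaling to equal library totals called 1299 genes higher and 603 lower. Cyr61 was then at 2.49, other matricellular genes had 1 higher and 2 lower, repeat proteins 1 higher, receptors 2 higher and 3 lower, YAP and TAZ targets 1 higher, Hippo components 7 higher and 1 lower, SRF targets 4 higher and 4 lower, core matrix 4 higher and matrix enzymes 1 higher. Under quantile normalisation Cyr61 was at 2.35, with 3 receptors lower, 4 SRF targets lower, 1 TGF-beta gene higher and 0 core matrix genes higher. Limma without trend called 655 genes lower, 1 other matricellular gene lower, 1 repeat protein higher, 0 receptors higher and 3 lower, 2 Hippo components lower, 1 SRF target higher and 4 lower, and 1 immediate early gene lower. Cyr61 was at 2.21 both with TMM scaling and in edgeR, and both called 1 repeat protein higher, as did a pseudocount of 5, no filter and the crossed pairing below. DESeq2 called 0 receptors higher, 2 Hippo components lower, 5 SRF targets lower, 1 TGF-beta gene higher and 0 core matrix genes higher. The log2 difference of Axl changed sign at equal totals (0.12) and under quantile normalisation (0.16). With single libraries left out it ran from -0.51 to 0.05 for Axl, from -0.20 to 0.34 for Myof, from -0.08 to 0.70 for Ptpn14, from -0.12 to 0.35 for Yap1 and from -0.20 to 0.91 for Wwtr1. Beyond the rescaling to equal totals, the cause of these shifts was not tested.

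The replicate block gave 641 genes higher and 918 lower, with 0 receptors and 1 TGF-beta gene higher. The libraries share only a number. Deviations of same-numbered libraries had a correlation of -0.129, and a crossed pairing, chosen after seeing the data, called 891 genes higher and 1154 lower.

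Leaving out each library gave 442 to 758 genes higher and 716 to 988 lower. Higher counts ran from 0 to 1 for repeat proteins, receptors and matrix enzymes, from 2 to 4 for Hippo components, from 0 to 3 for SRF targets and core matrix, from 0 to 2 for TGF-beta genes and from 4 to 8 for immediate early genes. Lower counts ran from 1 to 4 for Hippo components and from 5 to 9 for SRF targets. Of 77 named genes with a test, Smad6 not among them, 41 kept their side of the threshold and their sign under every setting run. Depth limits Thbs1, Wisp1, Thbs2 and Adamts2, among others, each with fewer than 30 reads in some library.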

Other observations

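Tested genes were counted by the number of TATTTAT copies in the 3′ UTR, the feature shared by Cyr61 and Thbs1. The grouping was made after the values were seen, and differences between the groups were not tested. Without Cyr61 and Thbs1, 9.34% of 289 genes with at least 2 copies in the 3′ UTR were lower past the threshold, against 16.2% of 797 genes with 1 copy and 24% of 3494 genes with none. The shares of higher genes were nearly alike, at 15.9%, 16.6% and 15.7%. The median log2 differences were 0.23, 0.10 and -0.04. The length of the 3′ UTR moved with the number of copies, with medians of 2052, 1382 and 662 bases. Among genes with a 3′ UTR of 1400 to 2800 bases the lower shares were 9.8% of 102 genes, 12.9% of 240 and 17.2% of 633. The higher shares were 11.8%, 19.6% and 15.3%. The 3′ UTR of Thbs1, at 2104 bases, lies in this range, and that of Cyr61, at 690 bases, does not.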
